A study of Caenorhabditis elegans with 2 samples.

Results

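The genes described are the nematode Caenorhabditis elegans genes for making, carrying and breaking down fatty acids, set against binding of the nuclear hormone receptor NHR-76. They are the protein-coding genes of the families fat, elo, acs, acdh, lipl, lbp, ech, kat and cpt, taken by gene symbol in the Ensembl annotation of assembly WBcel235. No measured value enters that rule, but earlier results of these data were known when the set was chosen. The symbols gave 85 genes of 19985 protein-coding genes: 7 fat, 9 elo, 22 acs, 9 lbp, 8 lipl, 6 cpt, 13 acdh, 10 ech and 1 kat.

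Binding was measured by chromatin immunoprecipitation and sequencing (ChIP-seq) in whole mixed-stage embryos of pooled sexes, in 2 biological replicates of 1 group. Both came from strain OP203, genotype unc-119(ed3) III with the transgene wgIs203, which makes NHR-76 carrying GFP and FLAG at its C terminus, so both replicates carry the unc-119 allele and the tagged protein. No other condition was analysed here, so the members are compared with the other genes in the same lists. In whole embryos, a site occupied in fewer cells and a site occupied more weakly cannot be told apart, and no intestine-only sample was analysed here.

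In this worm the intestine is the main place where fat is made, stored and used, and nuclear hormone receptors, a large family of ligand-binding transcription factors, control much of that work. NHR-49 is the best known of them for the fat and acs genes. NHR-76 is known for a role in neuronally driven fat loss in the intestine. Desaturases (fat) and elongases (elo) shape fatty acid chains. Acyl-CoA synthetases (acs) activate fatty acids, lipid-binding proteins (lbp) carry them, and lysosomal lipases (lipl) release them from stored fat. Carnitine palmitoyltransferases (cpt) pass them into mitochondria, where acyl-CoA dehydrogenases (acdh), enoyl-CoA hydratases (ech) and the thiolase kat-1 take part in breaking them down.

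The pooled list of candidate peaks held 30000 entries, the replicate 1 list 7516 and the replicate 2 list 30000. The final list, thresholded on the irreproducible discovery rate (IDR, a measure of how well peak ranks repeat), held 140. Signal is the authors' value per peak on a scale that is not stated, and ran between 2.82 and 442 in the pooled list with a median of 4.31. Rank 1 is the highest signal in a list. A peak was assigned to a gene when its summit lay within 1000 bp of any annotated transcript 5′ end of that gene. Sequencing depth is unknown, because the lists hold no read numbers. In the pooled list a −log10 q-value of 3.16, the highest, was reached by 725 peaks, and the lowest was 0.0893. In replicate 1 the lowest was 2.62 and in replicate 2 it was 0.0594. By their deposited description these lists hold background as well as peaks, so ranks are given throughout.

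The sequences printed here, chosen by pooled rank alone, are those under the 6 best-ranked member peaks, all within the first 3000 ranks. Each window spans 201 bp of the plus strand, centred on the pooled summit, read from the RefSeq genome (WBcel235, called ce11 in the peak lists). They run chrIV:11857229-11857429 for ech-2, chrX:3258891-3259091 for lbp-1, chrX:3256862-3257062 for lbp-3, chrV:386267-386467 for lipl-5, chrII:7063134-7063334 for acs-6 and chrV:2068115-2068315 for lbp-9. Capitals mark matches, on either strand, to any of the 6 motifs searched: the nuclear receptor half-site AGGTCA, its variant AAGTCA, the HNF4-type half-site AGTCCA, the GATA-factor type TGATAA, the E-box CACGTG and the GA repeat GAGAGA.
ech-2: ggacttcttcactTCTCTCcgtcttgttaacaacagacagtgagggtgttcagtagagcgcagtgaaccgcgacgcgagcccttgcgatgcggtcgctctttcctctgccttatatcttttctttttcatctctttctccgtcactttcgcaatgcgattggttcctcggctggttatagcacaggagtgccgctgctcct
lbp-1: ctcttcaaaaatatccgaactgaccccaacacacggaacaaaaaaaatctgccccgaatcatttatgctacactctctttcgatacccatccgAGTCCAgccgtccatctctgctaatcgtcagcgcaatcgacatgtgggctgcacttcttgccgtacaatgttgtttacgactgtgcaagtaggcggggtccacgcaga
lbp-3: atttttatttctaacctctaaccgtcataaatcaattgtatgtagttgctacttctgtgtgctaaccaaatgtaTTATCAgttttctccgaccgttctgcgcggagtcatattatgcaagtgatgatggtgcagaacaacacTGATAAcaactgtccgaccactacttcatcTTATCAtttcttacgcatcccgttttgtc
lipl-5: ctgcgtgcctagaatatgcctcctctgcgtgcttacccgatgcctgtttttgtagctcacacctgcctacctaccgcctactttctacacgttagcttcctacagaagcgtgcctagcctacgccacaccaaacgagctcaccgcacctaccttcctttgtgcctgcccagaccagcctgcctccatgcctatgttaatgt
acs-6: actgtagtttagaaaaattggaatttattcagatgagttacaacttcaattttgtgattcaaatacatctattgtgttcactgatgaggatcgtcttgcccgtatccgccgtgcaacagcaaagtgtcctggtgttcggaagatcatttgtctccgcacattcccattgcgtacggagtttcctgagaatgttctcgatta
lbp-9: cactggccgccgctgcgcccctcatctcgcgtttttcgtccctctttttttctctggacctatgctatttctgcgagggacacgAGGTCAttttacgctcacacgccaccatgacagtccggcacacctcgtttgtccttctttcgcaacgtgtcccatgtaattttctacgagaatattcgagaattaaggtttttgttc
The match in lbp-1, AGTCCA, begins 7 bases to the left of the summit, and the match in lbp-9, AGGTCA, begins 16 bases to the left of it. The lbp-3 window holds TGATAA or its reverse complement 3 times, beginning 26 bases to the left and 42 and 72 bases to the right of the summit. The ech-2 window holds the reverse complement of GAGAGA, 87 bases to the left. The lipl-5 and acs-6 windows hold no match to these letters. None of the marked matches overlap.

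Fatty acid genes carried NHR-76 candidates about as often as protein-coding genes in general, and none carried a final peak. Of the 85 members, 49 had a pooled candidate, or 57.6% (95% interval 46.4% to 68.3%), against 54.2% of all protein-coding genes. A candidate in the top 3000 lay near 6 members, 7.06% (2.63% to 14.7%), against 8.89% of all genes. A final peak lay near 0 members, for which the interval runs up to 4.25%, against 0.681% of all genes. The intervals are exact Clopper-Pearson intervals and cover counting error over genes only, and each all-gene share lies inside the members' interval.

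In each replicate list, members with any peak were also near the all-gene share. Replicate 1 had a peak near 20 members, 23.5% (15% to 34.0%), against 18.1% of all genes. Replicate 2 had a peak near 51 members, 60.0% (48.8% to 70.5%), against 52.5% of all genes. Both replicate lists had a peak near 14 members, 16.5% (9.31% to 26.1%), against 12.5% of all genes. No list had a peak near 23 members, 27.1% (18.0% to 37.8%), against 33.3% of all genes. Here too, each all-gene share lies inside the members' interval.

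The first 3000 ranks of the replicates differed from the pooled list and from each other. In replicate 2 they held a peak near 1 member, acdh-6, 1.18% (0.0298% to 6.38%), against 8.41% of all genes, which lies above the members' interval. In replicate 1 they held a peak near 11 members, 12.9% (6.64% to 22%), against 8.17% of all genes, which lies inside it. The replicate 1 list is shorter, so its first 3000 ranks reach further down. The replicate 2 count of 1 depends on where the limits fall. The replicate 2 summit at the ech-2 site (rank 377) lay just beyond 1000 bp, and acdh-8 just missed the rank limit at 3026.

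**Figure D1:**
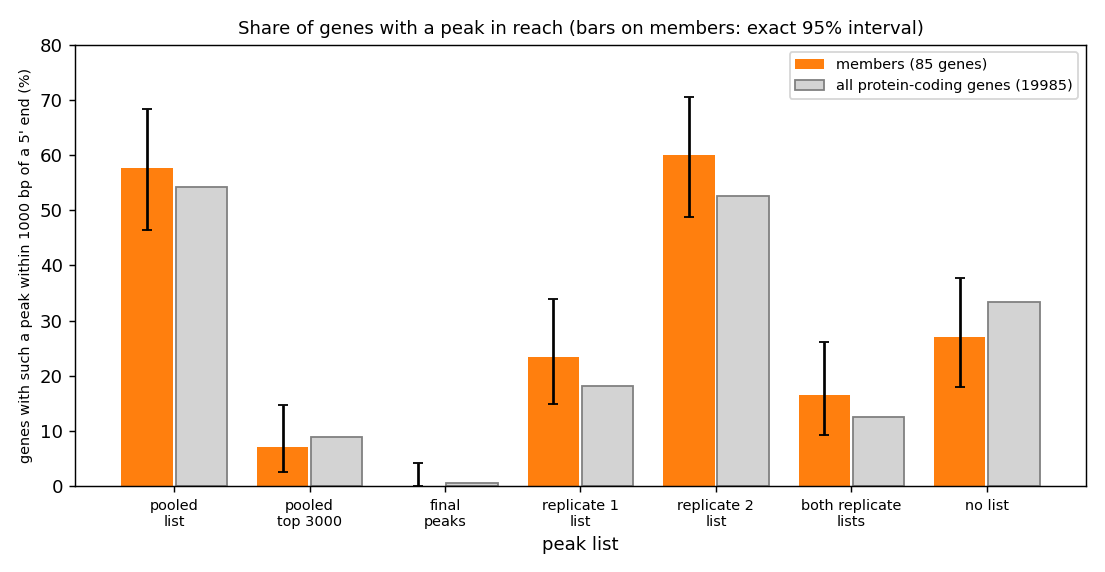
Share of genes, in percent, with a peak within 1000 bp of a 5′ end in each peak list, for the 85 members (orange, exact 95% intervals) and all 19985 protein-coding genes (grey). Every grey bar lies within the members' interval, as in the pooled list with 57.6% of members and 54.2% of all genes.

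Position in the list was also close to that of other genes. Over the 49 members with a candidate, the best one had a median rank of 10306 (34.4% of the way down the list), and over the 10838 such genes in all 11679 (38.9%). The median signal was 5.10 for members and 4.84 for all genes, and the highest member signal was 16.02. In replicate 1 the median best rank was 39.5% of the way down for members and 45.1% for all genes. In replicate 2 it was 34.1% for members and 39.0% for all genes. Members' median best ranks were thus slightly higher than the all-gene medians in these 3 lists. The highest member signal was 7.61 in replicate 1 and 8.98 in replicate 2.

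Pooled summits around members were about as dense as around genes in general, while the top ranks differed by list. The 202 kb within 1000 bp of member 5′ ends held 34.1 pooled summits per 100 kb, against 33.2 in the corresponding 41400 kb of all protein-coding genes and 29.9 over the whole genome. For the pooled top 3000 the densities were 2.97 around members, 3.78 around all genes and 2.99 over the genome. For the top 3000 of replicate 1 they were 5.93 around members and 3.60 around all genes, and for the top 3000 of replicate 2 they were 0.495 around members and 3.67 around all genes. The 69 candidates near members were all different, so no peak was counted for a pair of members. More than 1 candidate lay near 17 members, with up to 5 at cpt-2. The same count was not made over all protein-coding genes, so whether 17 is many or few cannot be said.

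Where a member had a candidate, the member's own 5′ end was usually the closest protein-coding 5′ end to it. The best candidate lay nearest to the member's own 5′ end in 47 of 49 cases, 95.9%, against 85.6% of all genes with a candidate. The exceptions were lipl-4, where the 5′ end of twk-10 was nearer, and acdh-9, where that of F28A10.13 was nearer. The candidates of acdh-10 and acdh-8 were nearest to the members' own 5′ ends, but their summits lay in coding exons of acdh-7 and lect-2. The best candidate lay upstream of the 5′ end for 21 members, 42.9%, against 53.2% of all such genes. It lay within 500 bp for 27 members, 55.1%, against 57.8%. By annotation, 19 of the 49 summits (38.8%) were in coding exons, against 31.3% of the best candidates of all genes. Another 16 (32.7%) were intergenic, against 35.3%, and 11 (22.4%) were in introns, against 25.6%.

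Summits of both replicates seldom coincided at a member's best candidate. A summit of neither replicate came within 100 bp of the best pooled summit for 11 members, 22.4%, against 34.3% of all genes with a candidate. Summits of both replicates came that close for 2 members, ech-2 and acs-6, 2.35% of 85, against 3.26% of all genes. The highest −log10 q-value of the pooled list was reached by 1 member, ech-2, which is 2.04% of members with a candidate, against 4.92% of all such genes. The other 48 members with a candidate therefore rest on peaks that the authors' own q-values rank below that level. A q-value of 0.05 was met by 8 of the 49, 16.3%, against 18.1% of all such genes, so most candidates of both did not meet it. The median −log10 q-value was 0.559 for members and 0.491 for all such genes.

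**Figure D2:**
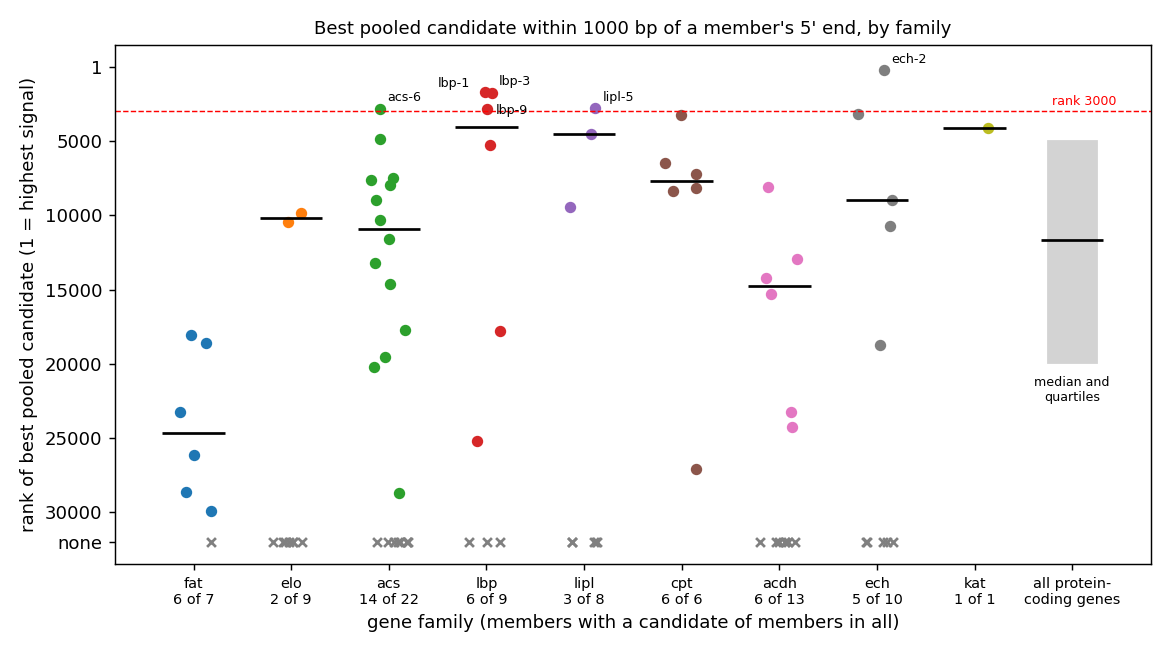
Rank of the best pooled candidate within 1000 bp of a 5′ end (vertical axis, rank 1 at the top) for each member, by family, with family medians as black lines and members without a candidate as crosses. The grey box gives the quartiles for all protein-coding genes around their median of 11679, and the 6 labelled members lie above rank 3000.

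The family counts below are read against the same 54.2% of all genes with a pooled candidate and their median rank of 11679. The share with a candidate was 85.7% for fat, 22.2% for elo, 63.6% for acs, 66.7% for lbp, 37.5% for lipl, 46.2% for acdh and 50% for ech, with 100% for the 6 cpt genes and for kat-1. With between 1 and 22 genes a family, these shares are descriptions only.

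Among the breakdown genes, ech-2, an enoyl-CoA hydratase family gene on chromosome IV, had the highest member peak. The peak lay at chrIV:11857159-11857498, with its summit in intergenic sequence 978 bp upstream of the 5′ end. Its signal was 16.02 in the pooled list (rank 233). In replicate 1 a summit 5 bp away had a signal of 4.22 (rank 974). In replicate 2 a summit 66 bp away had a signal of 11.6 (rank 377). This was the only member in the first 1000 ranks of the pooled list, and it lies close to the limit of reach: the replicate 2 summit fell just beyond 1000 bp, and the best replicate 2 peak within reach was another one, with a signal of 4.02 (rank 13492). The noncoding RNA gene F38H4.15 lies within 500 bp of the pooled summit.

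The other ech genes were lower. The gene ech-1.2, which encodes a homologue of the alpha subunit of the mitochondrial trifunctional protein, missed the top 3000 narrowly, with a pooled signal of 7.51 (rank 3189) against 7.64 at rank 3000. Its summit lay in an intron, 223 bp downstream of a 5′ end, and the replicate 1 list had no peak within reach. The best replicate 2 peak within reach of ech-1.2 had a signal of 3.50 (rank 17483). Its near copy ech-1.1 had a pooled signal of 3.85 (rank 18742). No pooled candidate was near ech-6, although both replicate lists had a peak within reach, at separate sites. Replicate 1 gave 4.15 (rank 1045) 964 bp upstream, and replicate 2 gave 3.09 (rank 21405) 586 bp upstream. In all, 5 of the 10 ech genes had a pooled candidate, with a median rank of 8931.

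The thiolase kat-1, which carries out the last step of mitochondrial beta-oxidation, had a peak at chrII:7074078-7074417, inside its own coding sequence, 434 bp downstream of the 5′ end. The pooled signal was 6.95 (rank 4112), replicate 2 gave 5.82 (rank 5233) at the same base, and replicate 1 had no peak within reach. The acyl-CoA dehydrogenase genes were mostly lower, with 6 of 13 having a pooled candidate at a median rank of 14768. The best, acdh-6, had a pooled signal of 5.59 (rank 8083). It also had the highest replicate 2 peak of any member, with a signal of 8.98 (rank 1046), 758 bp upstream, and no peak in replicate 1. The reverse held at acdh-12, where a replicate 1 signal of 5.005 (rank 483) had no counterpart within reach in the pooled or replicate 2 lists. The heat-responsive fat-7 regulator acdh-11 had only a replicate 2 peak, with a signal of 4.73 (rank 9319). Both replicate lists had a peak near acdh-10, at separate sites. Replicate 1 gave 3.12 (rank 2618) 521 bp downstream, and replicate 2 gave 5.12 (rank 7580) 671 bp upstream. The best pooled acdh-10 peak lay 850 bp upstream, with a signal of 4.42 (rank 14247). No list had a peak near acdh-1, the propionate-shunt dehydrogenase.

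All 6 cpt genes had a pooled candidate, at a median rank of 7661.5. The best, cpt-5, had a pooled signal of 7.46 (rank 3258) at chrV:13873695-13874034 in its coding sequence, and 5.87 (rank 5081) in replicate 2. For cpt-1, a homologue of the outer mitochondrial membrane enzyme, the pooled summit lay 81 bp upstream with a signal of 6.02 (rank 6502), and replicate 2 gave 4.30 (rank 11629). Replicate 1 had no peak within reach of either gene. At cpt-2, a homologue of its inner membrane partner, the best peaks of the lists lay apart. The pooled best lay 415 bp downstream with a signal of 5.82 (rank 7194), and a replicate 2 peak 14 bp from it had a signal of 2.70 (rank 25639). The replicate 1 best lay 359 bp upstream with a signal of 4.72 (rank 620), and the replicate 2 best 473 bp upstream with 5.31 (rank 6867).

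Among the carriers, the lbp family held 3 of the 6 members in the top 3000, and the median rank over its 6 genes with a candidate was 4025.5. Lipid-binding proteins of this family carry fatty acids within or between cells, and lbp-1, lbp-2 and lbp-3 encode forms with a secretion signal. These genes stand in a row on chromosome X, with 986 bp between lbp-3 and lbp-1 and 797 bp between lbp-1 and lbp-2, so their sites are neighbours and not independent of each other.

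At lbp-1 the peak lay at chrX:3258821-3259160, with its summit 151 bp upstream. The pooled signal was 8.80 (rank 1722) and replicate 1 gave 7.61 (rank 99) 79 bp away, the highest replicate 1 signal of any member. Replicate 2 had no summit within reach, the nearest being 1975 bp from the pooled summit. The pattern was the opposite at lbp-3, with a peak at chrX:3256792-3257131 and its summit 410 bp upstream: the pooled signal was 8.79 (rank 1735), replicate 2 gave 5.68 (rank 5633) 54 bp away, and replicate 1 had no peak within reach. No list had a peak within reach of lbp-2. Within this cluster, lbp-1 and lbp-3 were thus each listed in a different replicate.

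At lbp-9 on chromosome V, the peak lay at chrV:2068045-2068384, 234 bp upstream, with a pooled signal of 7.77 (rank 2823). Replicate 1 gave 6.79 (rank 131) at the same base, and the best replicate 2 peak, 485 bp away, had a signal of 4.71 (rank 9381). The gene lbp-5 had a pooled signal of 6.46 (rank 5228) and a replicate 2 signal of 5.37 (rank 6657). No list had a peak near lbp-8, whose product carries a lysosomal lipid signal to the nucleus, and the closest pooled summit lay 1819 bp away.

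Of the lysosomal lipases, 3 of 8 had a pooled candidate. At lipl-5 the peak lay in an intron at chrV:386197-386536, 158 bp upstream of an internal 5′ end, with a pooled signal of 7.80 (rank 2787) and a replicate 2 signal of 5.78 (rank 5311). Replicate 1 had no peak there. At lipl-4, the lipase whose extra activity is known to lengthen life through lbp-8, the summit lay 981 bp downstream in its own 3′ UTR, with a pooled signal of 6.77 (rank 4491). That summit was 439 bp upstream of the 5′ end of twk-10, a potassium channel gene, and a tRNA gene lay within 500 bp. Replicate 1 had a separate lipl-4 peak with a signal of 2.33 (rank 5533). The lipl-4 candidate is thus also a candidate of its neighbour.

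In the largest family, acs, 14 of 22 genes had a pooled candidate, at a median rank of 10945.5. The best was acs-6, with a peak in its coding sequence at chrII:7063064-7063403, 616 bp downstream of the 5′ end. The pooled signal was 7.78 (rank 2808), replicate 1 gave 2.87 (rank 3324) 49 bp away, and replicate 2 gave 5.91 (rank 4968) 19 bp away. It was the only member whose replicate peaks within reach both came within 100 bp of the best pooled summit, since the replicate 2 summit at the ech-2 site lay beyond 1000 bp. Both replicate lists had peaks near acs-12 too, but at separate sites, and its pooled signal was 5.62 (rank 7953). Replicate 1 gave 2.88 (rank 3256) 59 bp downstream, and replicate 2 gave 2.60 (rank 26868) 560 bp downstream. After acs-6 the best ranks were those of acs-13, with a pooled signal of 6.60 (rank 4873), and acs-20, with 5.75 (rank 7477). Both acs-20 and its relative acs-22, known for a role in the barrier function of the body surface, had a replicate 2 peak but none in replicate 1.

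For acs-2, the mitochondrial acyl-CoA synthetase best known as an NHR-49 target, the pooled signal was 3.76 (rank 19548), 937 bp downstream in coding sequence. Replicate 2 had a separate acs-2 peak 4 bp upstream, with a signal of 3.77 (rank 15286), and replicate 1 had none. For acs-1, which acts with branched-chain fatty acids, the pooled signal was 4.58 (rank 13228). Both replicate lists also had acs-1 peaks, with signals of 3.04 in replicate 1 (rank 2832) and 3.83 in replicate 2 (rank 14852). The replicate 1 summit lay 27 bp from the pooled acs-1 summit, while the nearest replicate 2 summit lay 645 bp from it. None of these ranks was high.

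Among the genes that shape fatty acid chains, 2 of 9 elo genes had a pooled candidate, elo-4 with a signal of 5.19 (rank 9831) and elo-1, an elongase of polyunsaturated fatty acid synthesis, with 5.06 (rank 10462). The branched-chain elongases elo-5 and elo-6 had no peak in any list. Peaks in both replicate lists, at separate sites and none of them in the first 3000 of replicate 1, lay near elo-4, elo-7 and elo-8. In the fat family 6 of 7 genes had a pooled candidate, yet none ranked higher than 18053, and their median rank was 24682.

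The desaturase genes that make monounsaturated fatty acids, fat-5, fat-6 and fat-7, all had their pooled summits in their own coding exons. At fat-6 the pooled signal was 3.94 (rank 18053) and the replicate 2 signal 5.69 (rank 5590). At fat-7 the pooled signal was 3.87 (rank 18599) and the replicate 2 signal 5.90 (rank 5012). The replicate 1 list had no peak within reach of either gene. At fat-5 the pooled signal was 2.93 (rank 28600) and the replicate 2 signal 4.63 (rank 9810), while a separate replicate 1 peak, 935 bp downstream, had a signal of 3.56 (rank 1750).

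The desaturases of polyunsaturated fatty acid synthesis had low pooled ranks too. At fat-1 the pooled signal was 3.13 (rank 26103) and the replicate 2 signal 5.67 (rank 5680), and at fat-2, which turns oleic acid into linoleic acid, they were 2.83 (rank 29915) and 4.70 (rank 9463). At fat-3 the pooled signal was 3.38 (rank 23261), with no replicate peak in reach. That fat-3 summit lay in intergenic sequence beyond the 3′ end of the gene, 545 bp downstream of an internal 5′ end. At fat-4 no pooled candidate lay in reach, with signals of 2.80 in replicate 1 (rank 3558) and 3.60 in replicate 2 (rank 16676) at separate sites. Where both lists had the same fat site, then, it sat low in the pooled list and higher in replicate 2.

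That difference was noticed after the values were seen. A replicate 2 summit lay within 100 bp of the best pooled summit for 5 fat genes, and in 5 of 5 the replicate 2 rank was higher, by between 12463 and 20452 places. Among the other members with such a pair, 2 of 27, 7.41%, ranked at least 10000 places higher in replicate 2, against 8.69% of all genes with such a pair. These were acdh-8, with a pooled signal of 3.39 (rank 23240) and a replicate 2 signal of 6.85 (rank 3026), and acs-17, with 3.69 (rank 20193) and 4.57 (rank 10113). Over all 32 members with such a pair, 7 ranked at least 10000 places higher in replicate 2, 21.9%, against the same 8.69%. Of these 7, 5 were the fat genes. A site can rise by at least 10000 places only if its pooled rank number is above 10000. The 5 fat sites had pooled ranks between 18053 and 29915, while many sites of other members ranked too high in the pooled list to rise that far. The shares given for other members and for all genes count such sites too, so they are not like for like with the fat sites. Counting a higher replicate 2 rank by any number of places, members leaned the other way: 12 of 32, 37.5%, against 47.6% of all such genes. At least 10000 places lower in replicate 2 were ech-1.2, acs-12, cpt-2, lipl-4 and acs-4, 15.6% of 32, against 12.1% of all such genes. Replicate 2 is part of the pooled alignment, so the lists share reads, and the part of replicate 1 in the difference was not tested.

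**Figure D3:**
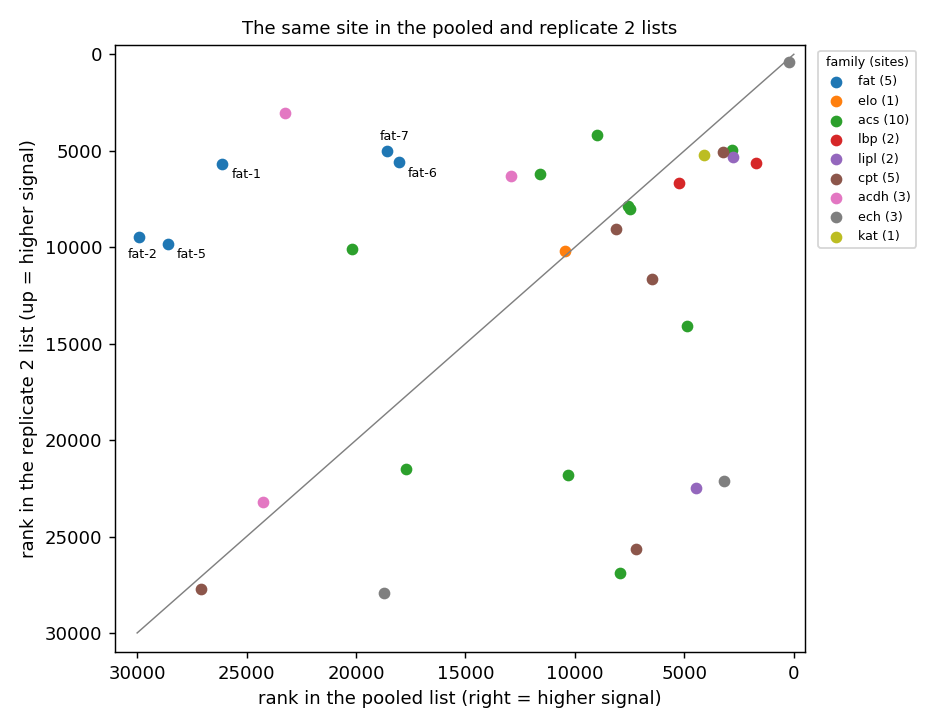
Rank of the best pooled candidate (horizontal axis, highest signal at the right) and of the replicate 2 peak within 100 bp of it (vertical axis, highest signal at the top) for 32 members, coloured by family, with a line of equal rank. The 5 fat genes lie above the line by at least 12463 places, while ech-2 lies near the top right at ranks 233 and 377.

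Motif matches were counted in the 201 bp windows around the best candidate of each of the 49 members and around all 30000 pooled candidates, on both strands. The E-box CACGTG, recognised by many helix-loop-helix factors, was in 7 member windows, 14.3% (5.94% to 27.2%), against 4.35% of all candidates. The windows were those of cpt-6, ech-5, fat-6, ech-1.1, acdh-8, fat-3 and fat-1, with 5 of the 7 summits in coding exons and ranks between 8375 and 26103, so none was in the top 3000. In windows of 50 bp on each side, 6 members kept a match, 12.2% (4.63% to 24.8%), against 2.26% of all candidates.

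Nuclear receptor half-sites were in a minority of windows. AGGTCA was in 6 member windows, 12.2% (4.63% to 24.8%), against 5.55% of candidates. AAGTCA was in 8 member windows, 16.3% (7.32% to 29.7%), against 9.38%. AGTCCA was in 5 member windows, 10.2% (3.40% to 22.2%), against 5.25%. These member shares were nominally above the candidate shares, with intervals that include them. TGATAA was in 11 member windows, 22.4% (11.8% to 36.6%), against 16.9%, and GAGAGA was in 4 member windows, 8.16% (2.27% to 19.6%), against 14.9%. The E-box was the only motif of the 6 whose candidate share fell outside the members' interval, and the intervals were not adjusted for the 6 motifs.

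**Figure D4:**
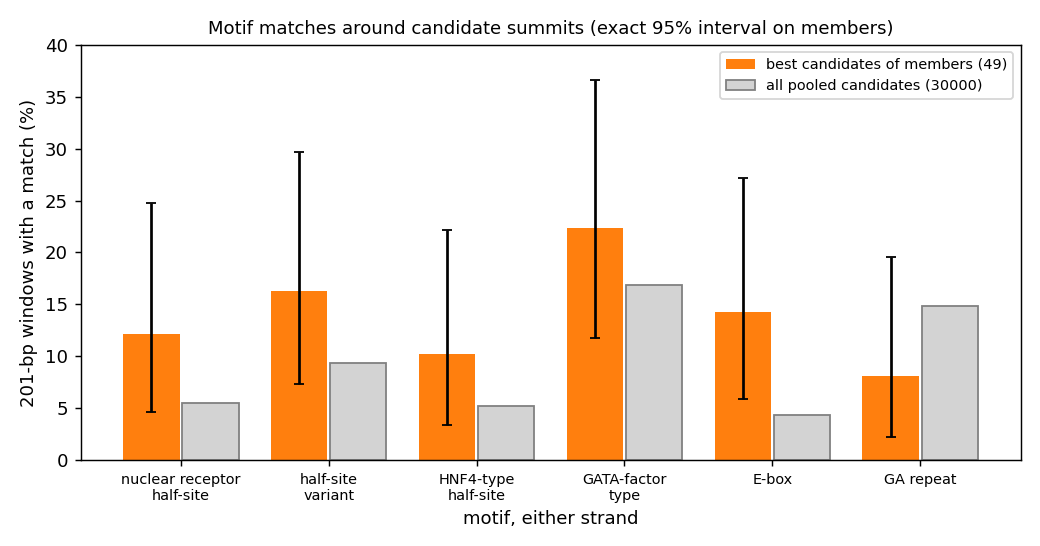
Share of 201 bp windows, in percent, with a match to each of 6 motifs on either strand, for the best candidates of 49 members (orange, exact 95% intervals) and all 30000 pooled candidates (grey). The grey bar lies within the interval except for the E-box, with 14.3% of member windows and 4.35% of candidates.

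Other lipid genes, in 5 lists of 51 genes, were read the same way. These lists were chosen with earlier results of these data known, so their counts and ranks are descriptions only. Of the 51 genes, 36 had a pooled candidate, a larger share than the 54.2% of all genes. In the top 3000, 8 of the 51 had one, also a larger share than the 8.89% of all genes. Of these 8, 5 were regulators of lipid genes. The peroxisomal, fatty acid synthesis, and membrane and ether lipid lists gave 1 each, and the triglyceride list 0. Among regulators of lipid genes, 14 of 15 had a pooled candidate, 5 of them in the top 3000, and the median rank was 4819.5, against 11679 for all genes. The fatty acid genes have a median of 1 annotated 5′ end a gene, against 4 for these regulators. With the outermost 5′ end alone, 11 of the 15 had a candidate, against 50.7% of all genes, and 4 had one in the top 3000, against 7.86%.

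The best of these regulators was nhr-49, the receptor gene named above, with its summit 7 bp from a 5′ end. Its pooled signal was 10.9 (rank 751), and replicate 2 gave 10.5 (rank 546) 3 bp away. The replicate 1 list had 2 nhr-49 peaks within reach, neither within 100 bp of that summit, and the better had a signal of 2.32 (rank 5594). The autophagy and lipase regulator hlh-30 had a pooled signal of 10.6 (rank 826) and no replicate 1 peak. Its antagonist in lipase control, mxl-3, had a pooled signal of 9.88 (rank 1095), a replicate 1 signal of 2.30 (rank 5680) and a replicate 2 signal of 7.79 (rank 1864). The NHR-49 partner nhr-66 had 9.51 in the pooled list (rank 1283), 3.07 in replicate 1 (rank 2761) and 9.32 in replicate 2 (rank 882). The candidate of lpd-2, with a signal of 8.42 (rank 2071), lay nearer to the 5′ end of cebp-2.

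In the remaining lists, 4 of 13 peroxisomal beta-oxidation genes had a pooled candidate, the best being dhs-28 with a signal of 9.18 (rank 1455). Of 10 triglyceride storage and lipolysis genes 8 had one, none in the top 3000. The lipase gene atgl-1, a known target in NHR-76-dependent fat loss, had no pooled candidate. Of 6 genes of fatty acid synthesis 5 had one, and of 7 membrane and ether lipid genes 5. A final peak lay near 2 of the 51 genes, mlcd-1 and fld-1, a larger share than the 0.681% of all genes. The peak at mlcd-1, the malonyl-CoA decarboxylase gene, had a pooled signal of 68.1 (rank 6) but lay 46 bp upstream of idhg-1. The peak at fld-1, a membrane fluidity gene, had a pooled signal of 56.5 (rank 12) but lay 138 bp upstream of dnj-29. Both peaks are thus closer to another gene.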

How the data were processed

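Peak lists in ce11 coordinates were analysed. Per the deposited README files, the authors made lists of peaks and background from each replicate and from pooled alignments against a control, as input for IDR. Which aligner, peak caller and IDR threshold they used is not given in the sources used here. The lists hold the authors' signal value, whose scale is not stated, the −log10 q-value as deposited, and the deposited summit offset. These values served for description and ranking inside each list.

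A gene was given a peak when a summit lay within 1000 bp of a 5′ end in Ensembl release 115 (WBcel235). The 6 motifs were searched within 100 bp of summits in the RefSeq genome. Python 3.11.15, pandas 2.3.3, numpy 2.4.6 and scipy 1.17.1 were used, and the assignment was tested on simulated data. Members, gene lists and tests were chosen with earlier results of these data known. No significance test was made, since 1 group was measured. Named genes were members in the top 3000, the best per family, up to 15 listed in both replicates, and fat-5, fat-6, fat-7, acs-2, lbp-8, lipl-4 and cpt-1, others being named after their values were seen. The ce10 lists were not used here.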

Additional observations from a re-analysis of the deposited data

How the results depend on the processing

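Of 59 alternative readings, 37 left the value within the set range and 22 moved it. Within 500 bp in place of 1000 bp, 32 members had a pooled candidate (all genes 36.7%). The best candidate lay nearest to the member's own 5′ end for 31 (33.8%), and 5 had a peak in both replicate lists (6.12%). Within 2000 bp, 13 had one in the top 3000 (all genes 13.9%), 27 in both lists (24.2%) and 1 a final peak (0.931%), and the median rank was 29.9% of the way down (33.8%). With the outermost 5′ end alone, 9 had peaks in both lists (10.1%). The top 10000 candidates gave 24 members (24% of all genes), the top 1000 gave 1 (3.54%) and the top 6000 gave 12 (15.9%). Replicate summits within 100 bp of each other were found for 1 member (3.48%), and both within 100 bp of the best pooled summit for 2 (3.26%). With 1 replicate list in place of the pooled list, the members with a peak numbered 20 in replicate 1 (18.1%) to 51 in replicate 2 (52.5%), and those in the top 3000 numbered 1 in replicate 2 (8.41%) to 11 in replicate 1 (8.17%). The median rank was 34.1% in replicate 2 (39.0%) to 39.5% in replicate 1 (45.1%). The replicate 1 list is shorter, and its top 751 peaks (10% of it) lay near 4 members (2.42%); this reading was added after the data were seen. With 50 bp on each side, AGGTCA was in 4.08% of member windows (all candidates 2.71%) and TGATAA in 10.2% (8.77%). In the 6 windows of the top 3000, AAGTCA was in 0% (all candidates 9.38%) and CACGTG in 0% (4.35%). The interval on each 0% ran up to 45.9%, so 6 windows cannot tell these shares apart. The cause of these shifts beyond fewer peaks or a wider reach was not tested. No paired analysis was possible because 1 group was measured and no result comes from a test.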

Other observations

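The limit of 1000 bp passed between members with very different peaks. Just inside it were acs-14 at 974 bp, ech-2 at 978 bp and lipl-4 at 981 bp. Just outside were lipl-8 at 1001 bp, with a pooled signal of 10.3 (rank 926), fat-4 at 1033 bp with 5.599 (rank 8049) and acs-17 with a further peak at 1033 bp and 3.07. Further out, a final peak with a pooled signal of 22.6 (rank 107) lay 1744 bp upstream of ech-1.2 and 1014 bp upstream of mrpl-23, a mitochondrial ribosomal protein gene. A peak with a signal of 18.0 (rank 175) lay 1635 bp upstream of lipl-2 but 225 bp upstream of ztf-7. A peak with a signal of 9.01 (rank 1579) lay 1152 bp downstream of a cpt-1 5′ end.

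By chromosome, 16 of 25 members on V, 64.0%, had a pooled candidate, against 48.3% of all genes on V. On IV it was 9 of 20 members or 45%, against 51.4% of all genes on IV. Around the best candidates of the 49 members, a tRNA gene lay within 500 bp in 1 case, 2.04%, against 1.08% of the best candidates of all genes, and a snoRNA gene in 0, against 0.783%.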
